A study of Homo sapiens with 49 samples.

Results

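Trimethylation of histone H3 lysine 4 (H3K4me3) was mapped by chromatin immunoprecipitation and sequencing (ChIP-seq) in T-47D cells, a human breast ductal carcinoma line that carries estrogen receptor α. The cells were kept in hormone-depleted medium, phenol red-free with charcoal-stripped serum, for several days and then received either the vehicle dimethyl sulfoxide (DMSO) or 10 nM 17β-estradiol (E2) for 8 h. The data were the 2 lists of peaks, called regions here, that the authors deposited for these libraries, with 30774 regions in the DMSO list and 29081 in the E2 list, together 59855 of the 528044 regions in the 45 peak lists of the series. Each treatment had 1 library of a single cell line, so no difference between the lists has a replicate check, and effects of E2 and differences between immunoprecipitations cannot be told apart. A region was classed as shared when it overlapped a region of the other list by at least 1 bp, and otherwise as E2-only or DMSO-only.

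H3K4me3 is laid down by the SETD1 and KMT2 methyltransferase complexes, which carry WDR5, RBBP5, ASH2L and DPY30, and is removed by the KDM5 demethylases. The mark sits over nucleosomes that flank the start sites of active genes and over CpG islands in general, and broad domains of it often cover genes of cell identity. Bound by E2, estrogen receptor α acts mostly at enhancers away from start sites, through estrogen response elements and with the pioneer factors FOXA1 and GATA3.

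The lists carried the promoter marks of a luminal breast line. A promoter was taken as the 500 bp around a start of a protein-coding gene and was called marked when a region touched it. A promoter that fell between regions therefore counts as unmarked. Promoters of 9 of 10 luminal epithelial genes were marked in both lists, among them KRT8, KRT19, EPCAM, CDH1, ESR1 and GATA3. Of all protein-coding genes 57.1% were. The keratin gene KRT18 was marked in neither. Its promoter fell between regions of a DMSO domain of 6726 bp, made by joining regions within 1000 bp of each other. The basal genes KRT5, KRT14 and TP63 were unmarked in both lists, as were the mesenchymal genes VIM, ZEB2 and TWIST1 and all 6 blood genes, which included PTPRC and SPI1. ACTA2, ZEB1, CDH2, COL1A1 and SERPINA1, from the basal, mesenchymal and liver lists, were marked in both lists.

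Most regions were common to the treatments, and the treatment-specific regions were the narrow and weak ones. In the DMSO list 25020 regions, or 81.3%, were shared and 5754, or 18.7% (95% exact binomial interval 18.3 to 19.1), were DMSO-only. In the E2 list 26334 regions, or 90.6%, were shared and 2747, or 9.45% (9.11 to 9.79), were E2-only. These intervals, like all those given here, cover counting error only. The median width was 221 bp for DMSO-only and 217 bp for E2-only regions, against 523 bp and 462 bp for the shared regions of the DMSO and E2 lists. At least 1000 bp was reached by 1 DMSO-only region, by 0 E2-only regions, and by 3891 and 3363 shared regions of the DMSO and E2 lists. Fold enrichment, the ratio of immunoprecipitated fragments to local background at the summit of a region, had a median of 7.77 in DMSO-only and 7.58 in E2-only regions and of 11.8 and 9.82 in the shared regions of the DMSO and E2 lists. Of the 6155 DMSO regions in the top 20 percentiles of fold enrichment, 0.520% were DMSO-only, against 46.0% of the 6143 in the lowest 20. For the E2 list these shares were 0.619% and 19.5%.

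**Figure D1:**
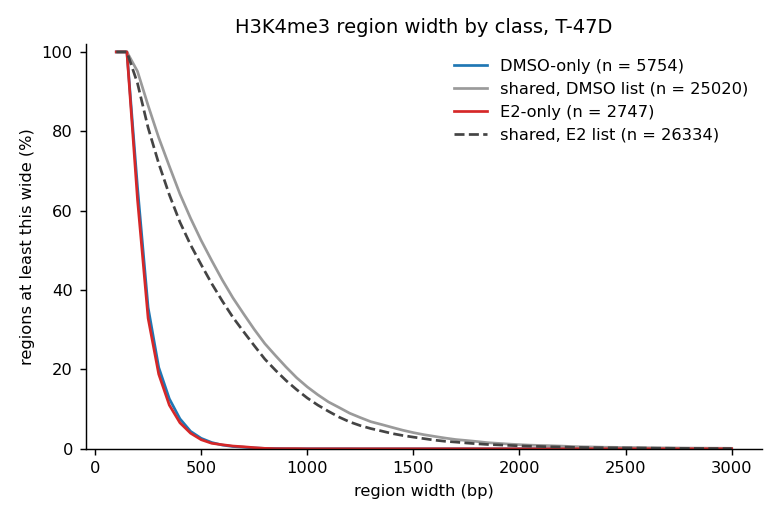
Share of T-47D H3K4me3 regions (y axis, percent) that are at least as wide as the value on the x axis (bp), for shared regions of each list and for DMSO-only and E2-only regions. The curves of the DMSO-only and E2-only regions lie almost on each other with medians of 221 and 217 bp, while the shared regions reach much greater widths.

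Many treatment-specific regions lay close to a region of the other list. Of the E2-only regions, 67.3% lay within 1000 bp of a DMSO region, and 53.3% of the DMSO-only regions lay within 1000 bp of an E2 region. That left 899 E2-only and 2686 DMSO-only regions farther away. Only 17.4% (16 to 18.9) of E2-only regions touched a promoter, against 30.3% (29.1 to 31.5) of DMSO-only regions and 62.0% (61.4 to 62.6) of the shared DMSO regions. Away from promoters, 56.6% of the E2-only and 40.8% of the DMSO-only regions lay inside a protein-coding gene. When neighbouring regions within 1000 bp of each other were first joined, 937 E2-only and 2508 DMSO-only domains remained.

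The E2-only and DMSO-only regions differed in base composition. In 300 bp windows at the region centres the median G+C content was 43.7% for E2-only and 58.7% for DMSO-only regions, with 59.7% and 58.7% for the shared regions of the DMSO and E2 lists. The number of CpG dinucleotides per window had a median of 5 in E2-only and 12 in DMSO-only regions. The lines of sequence show the number of CpG in 6 of the strongest treatment-specific regions outside exons of protein-coding genes, as 200 bases around the summit of each. Capitals mark each CpG dinucleotide, and positions are those of GRCh37 (hg19). The CLTA region lies 120 bp outside the gene of a clathrin light chain, the WWC2 region lies in an intron of that gene, and the region in the noncoding gene ENSG00000253693 lies 1269717 bp from the nearest protein-coding gene, TENM2. The CHST10 region lies 56 bp outside a sulfotransferase gene, the AGPAT3 region lies in an intron of an acyltransferase gene, and the intergenic region lies 141002 bp from CTAGE1.
CLTA promoter, E2-only, chr9:36190532-36190731, plus strand: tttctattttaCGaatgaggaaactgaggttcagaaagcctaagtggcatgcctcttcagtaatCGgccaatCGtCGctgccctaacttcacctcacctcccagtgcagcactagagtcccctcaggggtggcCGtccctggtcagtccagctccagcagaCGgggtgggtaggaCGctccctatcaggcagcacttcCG
WWC2 intron, E2-only, chr4:184022015-184022214, plus strand: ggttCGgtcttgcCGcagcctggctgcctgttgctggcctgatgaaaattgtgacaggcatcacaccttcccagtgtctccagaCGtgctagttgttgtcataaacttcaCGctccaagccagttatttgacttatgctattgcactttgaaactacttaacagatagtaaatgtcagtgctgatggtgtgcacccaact
ENSG00000253693, E2-only, chr5:165136063-165136262, plus strand: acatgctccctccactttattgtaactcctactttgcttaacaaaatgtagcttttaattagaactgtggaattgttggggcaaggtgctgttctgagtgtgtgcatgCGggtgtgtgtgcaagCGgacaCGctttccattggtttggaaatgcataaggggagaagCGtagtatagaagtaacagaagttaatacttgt
CHST10 promoter, DMSO-only, chr2:101034190-101034389, plus strand: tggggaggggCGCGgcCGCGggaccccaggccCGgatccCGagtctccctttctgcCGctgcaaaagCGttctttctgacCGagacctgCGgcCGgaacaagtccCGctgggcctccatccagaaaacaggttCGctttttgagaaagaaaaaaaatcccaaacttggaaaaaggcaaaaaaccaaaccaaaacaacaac
AGPAT3 intron, DMSO-only, chr21:45285781-45285980, plus strand: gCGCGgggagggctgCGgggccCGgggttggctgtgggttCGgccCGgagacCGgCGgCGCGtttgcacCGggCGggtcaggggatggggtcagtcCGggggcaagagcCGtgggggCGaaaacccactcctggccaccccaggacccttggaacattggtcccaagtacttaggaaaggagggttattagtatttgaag
Intergenic, DMSO-only, chr18:20138898-20139097, plus strand: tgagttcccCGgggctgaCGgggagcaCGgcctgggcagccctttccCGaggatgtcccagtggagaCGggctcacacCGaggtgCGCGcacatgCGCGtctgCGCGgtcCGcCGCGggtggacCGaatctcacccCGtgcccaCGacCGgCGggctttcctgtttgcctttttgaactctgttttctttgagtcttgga

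These windows held 8, 4 and 4 CpG in the E2-only and 13, 15 and 20 in the DMSO-only regions. Their G+C content was 56.5%, 47.5% and 42.5% against 55.0%, 66.5% and 65.0%, so that it did not separate the CLTA and CHST10 promoters. Over all promoter regions the median G+C content was 47.5% in the 478 E2-only and 65.3% in the 1745 DMSO-only regions. Of the 973 E2 regions with a G+C content under 40%, 68.3% (65.3 to 71.3) were E2-only, and of the 8871 with a G+C content of 60 to 70% only 2.16% (1.87 to 2.49) were. In the DMSO list the DMSO-only share ran from 9.32% to 22% over the same 5 classes of G+C content, with no such slope. The separation was already present among regions over 1000 bp from the other list, at 44.7% for E2-only and 58.0% for DMSO-only regions. In Ishikawa cells, an endometrial adenocarcinoma line mapped in the same way, the order was the opposite, with a median of 57.7% for the 3628 E2-only and 51.0% for the 1974 DMSO-only H3K4me3 regions. Base composition moved with the class in the T-47D lists, and its part in the class counts was not tested.

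**Figure D2:**
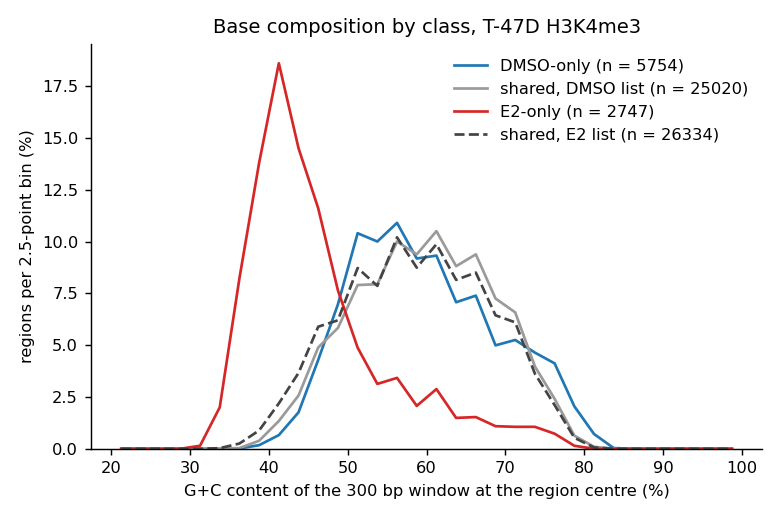
Distribution of G+C content (x axis, percent, in the 300 bp at the region centre) for each class of T-47D H3K4me3 regions, as the percent of its regions in each 2.5-point bin (y axis). The E2-only regions peak near 40%, with a median of 43.7%, while DMSO-only and shared regions have medians of 58.7 to 59.7%.

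Motifs were counted in the same windows. The consensus estrogen response element, GGTCANNNTGACC, was present in 2 of 2747 E2-only windows (0.0728%, 0.00882 to 0.263) and in 6 of 5754 DMSO-only windows (0.104%, 0.0383 to 0.227), against 0.0400% of shared DMSO windows. The AP-1 motif TGANTCA was present in 8.85% of E2-only, 6.40% of DMSO-only and 4.78% of shared DMSO windows. The FOXA motif TGTTTAC, which is rich in A and T, was found in 6.04%, 2.80% and 2.66% of these windows, and TATAAA in 17.1%, 5.06% and 4.82%. N stands for any base, all motifs were searched on both strands, and none of the 4 contains another. No match means only that these letters were not in the window.

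The promoter comparison rests on how many fragments lay over each summit. That number was solved from the fold enrichment and p-value of a region on the assumption that MACS2's standard formulas made them, and all values of fragments and background rest on it. A whole number met both in 100% of regions, within 0.001 on the −log10 scale. A DMSO region had a median of 43 fragments at its summit and a 5th to 95th percentile of 22 to 92, and an E2 region had a median of 41 and a range of 22 to 83. The weakest region of either list had 13. DMSO-only and E2-only regions both had a median of 28, and a count of 28 has a 95% Poisson interval of 18.6 to 40.5. The local background came in steps of 0.716 in the DMSO and 0.795 in the E2 list and had a median of 3.06 and 3.38. Its lowest value was 0.906 in DMSO and 1.00 in E2, a ratio of 1.1. The fragments were not scaled for library size.

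Nearly the same promoters were marked in both lists. Of 19748 protein-coding genes, 11274 (57.1%) were marked in both, 118 (0.598%) in the E2 list only, 797 (4.04%) in the DMSO list only and 7559 (38.3%) in neither. The promoters marked in both had a median fold enrichment of 14.6 in DMSO and 12.0 in E2. Those marked in DMSO only had a median of 9.57, and those marked in E2 only had a median of 8.21. The median G+C content within 150 bp of the start was 62.2% for genes marked in E2 only, 68.5% for genes marked in DMSO only and 65.7% for genes marked in both.

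The strongest E2-only regions at promoters belonged to genes that were marked under DMSO as well. All 10 of them, at ARMC1, UBA6, SP3, ABCC4, CLTA, REST, TMEM17, UBQLN2, LPGAT1 and G3BP2, had a region of the DMSO list within 141 to 749 bp. UBA6, a ubiquitin-activating enzyme, had an E2-only region of 431 bp with a fold enrichment of 14.1 and 36 fragments, in a window of 38.7% G+C. REST, the repressor of neuronal genes, had an E2-only region of 214 bp with a fold enrichment of 13.1 and 33 fragments, 175 bp from a DMSO region. Over all genes that an E2-only region touched, 390 of 479 were also marked in the DMSO list. Of the strongest E2-only regions away from promoters, the one in the WWC2 intron had 32 fragments and a fold enrichment of 16.5, and one in an intron of HCRTR2, an orexin receptor gene, had 39 fragments, a fold enrichment of 15.3 and no DMSO region within 297279 bp. Another, in an exon of the copper chaperone gene COX17, had 53 fragments and lay 83 bp from a DMSO region, and one in an exon of the ubiquitin ligase gene PELI1 had 31 fragments.

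The strongest DMSO-only regions at promoters were at KLF16, CSPG5, SDC1, TUBGCP2, CHST10, RPS6KA1, FTCDNL1, DOCK8, the shared start of DNASE1L1 and TAFAZZIN, and GALNT11. CSPG5, SDC1 and RPS6KA1 had no other promoter region in the E2 list. SDC1, the cell surface proteoglycan syndecan-1, was marked under DMSO by a region of 237 bp with 42 fragments and a fold enrichment of 17.7, and the nearest E2 region lay 124447 bp away. CSPG5, a neural proteoglycan, was marked by 35 fragments at a fold enrichment of 18.2. RPS6KA1, a kinase downstream of ERK, was marked by 33 fragments at a fold enrichment of 16.4, with an E2 region 431 bp away. KLF16, a Krüppel-like factor, had 40 fragments but was also marked in E2 by another region. Away from promoters the strongest DMSO-only regions were in an intron of AGPAT3 with 49 fragments, an exon of the phosphodiesterase gene PDE4A with 42, near CTAGE1 with 52, in an intron of the splicing kinase gene SRPK2 with 43, and in the noncoding gene LINC02937 with 42.

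At promoters marked in both lists, the rank of fold enrichment scattered widely, while the number of fragments did not. Each region received its percentile rank within its own list, and a promoter took its strongest region. The median change in rank, E2 minus DMSO, was −2.49 points with quartiles of −13.8 and 5.71, and Spearman's rho across the 11274 promoters was 0.663. A rank higher in E2 by 20 points or more was found at 962 promoters (8.53%), and a rank lower by as much at 1910 (16.9%). Ranked among the promoters marked in both lists alone, 1903 (16.9%) were higher and 1869 (16.6%) lower, so the excess of lower ranks depends on the other regions of the lists. The fragments at the strongest summit gave a rho of 0.922, and their rank was higher in E2 by 20 points at 129 promoters (1.14%) and lower at 946 (8.39%). Promoters are not independent replicates, and both coefficients describe these 2 libraries. The E2 list had a median of 0.879 times the fragments of the DMSO list, with quartiles of 0.800 and 0.964. On the log2 scale the ratio had a median of −0.19 and an SD across promoters of 0.22, and the counting error of a single promoter had a median of 0.27. That error is the one of a Poisson count, while the value used is the largest of a promoter. It serves as a scale and is not the measured spread. Against that median, 54 promoters (0.479%) were higher and 104 (0.922%) lower in E2 by more than 2 counting errors.

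Fragments and background both enter fold enrichment, so their direction in promoters chosen by rank is in part set by that choice, and their values are a description. At the 1910 promoters whose rank was lower in E2 by 20 points, the median ratio of E2 to DMSO was 0.762 for the fragments and 1.33 for the local background. At the 962 promoters whose rank was higher the ratios were 1.00 and 0.740. Over all 11274 they were 0.878 and 1.1. Of the 962 promoters higher in rank, 82 (8.52%) were also higher by 20 points in the rank of fragments, and of the 1910 lower in rank 548 (28.7%) were also lower.

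**Figure D3:**
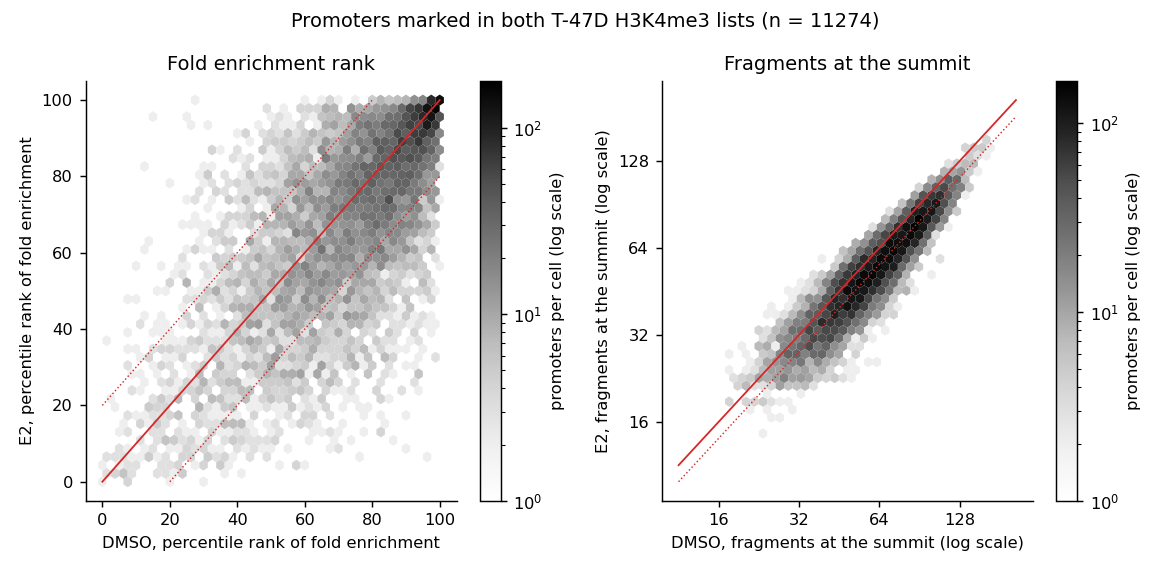
Promoters marked in both T-47D lists, as hexagonal cells shaded by their number (log scale). Left, percentile rank of fold enrichment in DMSO (x) against E2 (y), with the diagonal and dotted lines at 20 points, with a Spearman's rho of 0.663. Right, fragments at the strongest summit on log axes, with the diagonal and a dotted line at the median log2 ratio of −0.19. The points follow that line closely, with a rho of 0.922.

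The largest shifts to a higher rank in E2 among shared promoter regions were at NSD3, STEAP2, PSMD7, the divergent pair CDCA5 and ZFPL1, NLGN4X, ZNF789, CKS1B, ZNF644 and CAMK2N2. At CDCA5, which encodes the cohesin protector sororin, and ZFPL1, the rank went from 26.8 to 99.8 although the fragments went from 86 to 76, over a background of 9.31 in DMSO and 2.32 in E2. At ZNF644, a zinc finger gene, the fragments were 42 and 43. CKS1B, a regulator of cyclin-dependent kinases, had 84 fragments in DMSO and 97 in E2. NSD3, a histone methyltransferase gene, had the largest shift, from 6.21 to 90.1, with 40 and 60 fragments, but when the region was joined with its neighbours the rank of the domain moved by −2.21 points. The same joining gave −6.49 points for the proteasome gene PSMD7 and gave shifts of similar size for CDCA5 and ZFPL1 (81.3) and ZNF644 (76.0), and smaller ones for STEAP2 (21.8), CKS1B (31.8) and CAMK2N2 (34.5).

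The largest shifts to a lower rank in E2 were at PRDM2, COPS6, ROBO1, ATP5IF1, RPS2, SGCB, GATAD1, ANKFY1, the divergent pair DCLRE1A and NHLRC2, and NDUFB4. COPS6, a subunit of the COP9 signalosome, moved from percentile 93.2 to 11.9, with 54 fragments over a background of 1.96 in DMSO and 36 over 4.77 in E2. GATAD1, a zinc finger protein gene, had 55 and 28 fragments, a log2 ratio of −0.97 with a counting error of 0.33. ROBO1, an axon guidance receptor gene, had 46 and 42 fragments over a background of 1.47 and 5.57, and ANKFY1 had 42 and 40 over 1.43 and 5.57. NDUFB4, of respiratory complex I, had 81 and 55 fragments, and ATP5IF1, the inhibitor of the mitochondrial ATPase, had 73 and 58. At RPS2, of the small ribosomal subunit, the shift of −80.5 points was that of 1 region, and the joined domain moved by −2.19 points. The joined domains of COPS6, GATAD1 and ATP5IF1 moved by −80.8, −85.3 and −74.8 points, and that of PRDM2, the largest shift, by −30.8 in place of −83.3. Those of ANKFY1 and SGCB moved by −53.3 and −57.6 points. Over all promoters, 73.9% of the 962 higher and 69.5% of the 1910 lower in rank by 20 points were so with joined domains too.

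Ranked by the ratio of fragments to its counting error, a rule chosen after the values were seen, the 10 promoters lowest in E2 were MAP6D1, CHST12, BARX2, FAM83H, PNMA1, TRIM41, SENP7, ST14, VAT1L and MLLT11. MAP6D1, a microtubule-associated protein gene, had 104 fragments in DMSO and 36 in E2, and CHST12, a chondroitin sulfotransferase gene, had 121 and 47. BARX2, a homeobox gene, had 121 and 54, and ST14, the epithelial protease matriptase, had 108 and 54. In the rank of fold enrichment BARX2 went from 72.6 to 73.0 and SENP7 from 19.9 to 77.4, while the others of these 10 were lower in E2. The promoters highest in E2 were FBXW5, ATPAF1, ZNF608, UBFD1, TMEM219, BCL6, ARID5B, YOD1, RMI2 and DAP. FBXW5, an F-box protein gene, had 32 and 62 fragments, ATPAF1, an assembly factor of the mitochondrial ATPase, had 28 and 51, and the transcriptional repressor gene BCL6 had 47 and 68. FBXW5 was the farthest from the median of all promoters among those higher in E2, at 3.63 counting errors, and MAP6D1 among those lower, at −4.82. The median G+C content at the start was 66.1% for the 54 promoters higher and 69.3% for the 104 lower by 2 counting errors, beside 65.7% for all promoters marked in both lists.

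Most genes that E2 is known to induce were marked in both lists, with rank changes from −53.6 to 32.6 points. Of 41 such genes, 33 were marked in both lists, 0 in E2 only and 2 in DMSO only. Those 2 were the fatty acid elongase ELOVL2 and the amino acid transporter SLC7A5. Of all protein-coding genes, 57.1% were marked in both lists, 0.598% in E2 only and 4.04% in DMSO only. These shares also stand beside the counts of each gene list below. TFF1, PDZK1, AREG, AGR3, KRT13 and CELSR2 had no promoter region in either list. The rank was higher by 20 points at 2 of the 33 (6.06%) and lower at 5 (15.2%), beside 8.53% and 16.9% of all promoters, and its median change was −0.70 points, beside −2.49. GREB1, an early target of the receptor, had 43 fragments in DMSO and 50 in E2, with a fold enrichment of 17.9 and 19.5 and percentiles of 91.6 and 98.8. MYC had 89 and 95 fragments, and the unfolded protein response factor XBP1 had 38 and 44. Their log2 ratios of 0.22, 0.09 and 0.21 lay within 1.35 counting errors of the median of all promoters. AGR2, a protein disulfide isomerase gene, had 47 and 62 fragments and was the 1 gene of the list beyond 2 counting errors, at 2.1. Its joined domain had a fold enrichment of 11.6 in DMSO and 11.5 in E2. Of all promoters, 0.479% were higher and 0.922% lower by more than 2 counting errors of fragments. PGR, the progesterone receptor gene, had 81 and 74, CCND1 had 85 and 77, and the carbonic anhydrase gene CA12 had 75 and 64. The chemokine gene CXCL12 had 94 and 68 and WWC1 had 65 and 41. RAB31, a small GTPase gene, was lower by 53.6 points in the rank of fold enrichment while its fragments were 42 and 40. The median ratio of fragments was 0.939 for the list and 0.879 for all promoters. With joined domains the median rank change was 0.86 points for the list and −2.96 for all promoters.

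Of 7 genes that E2 is known to repress, 6 were marked in both lists and PSCA in neither. The rank of TGFB2, a growth factor gene, was lower by 32.6 points, with 68 fragments in DMSO and 60 in E2. It was the 1 gene of the 6 lower by 20 points (16.7%), and 0 were higher. Over all promoters these shares were 16.9% and 8.53%. CCNG2 had 53 and 46 fragments, ERBB2 had 69 and 65, and the proapoptotic gene BIK had 34 and 41. None of the 6 lay beyond 2 counting errors, and their median ratio of fragments was 0.886.

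All 14 luminal transcription factor genes were marked in both lists. GATA3 had the widest group of overlapping promoter regions, with 7367 bp in 3 regions of the DMSO list and 7570 bp in 1 region of the E2 list, and 101 and 93 fragments. FOXA1 had 48 and 50 fragments, ESR1 had 46 and 35, and SPDEF had 95 and 82. ELF3, an epithelial ETS factor gene, went from 56.5 to 83.4 with 84 and 70 fragments. The rank was higher by 20 points at 1 of the 14 (7.14%) and lower at 1 (7.14%), beside 8.53% and 16.9% of all promoters. None of the 14 lay beyond 2 counting errors of fragments.

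Of 25 genes of S phase and mitosis, 23 were marked in both lists, CCNE1 in DMSO only and E2F1 in neither. The E2F1 promoter fell between regions of a joined DMSO domain of 2043 bp. The rank was lower by 20 points at 4 of the 23, the replicative helicase genes MCM5 and MCM6, the licensing factor gene CDT1 and the ribonucleotide reductase gene RRM1, and higher at 1, E2F2. These are 17.4% and 4.35% of the 23, beside 16.9% and 8.53% of all promoters. Their fragments were 37 and 35 for MCM5, 48 and 40 for MCM6, 62 and 52 for CDT1, 58 and 42 for RRM1 and 30 and 37 for E2F2. CCNE1, the cyclin of the G1 to S transition, had 21 fragments in DMSO, close to the 13 of the weakest region. The median ratio of fragments was 0.883, and none of the 23 lay beyond 2 counting errors.

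Among 14 immediate early genes, 13 were marked in both lists and FOSL1 in DMSO only, with 35 fragments. The rank was lower by 20 points at FOS, FOSL2, JUN and EGR2, or 30.8% of the 13, and higher at EGR1 and DUSP1, or 15.4%, beside 16.9% and 8.53% of all promoters. With joined domains it was lower at 2 and higher at 2, and JUN moved by 13.4 points in place of −29.7, DUSP1 by −1.69 in place of 34.1 and FOSL2 by −12.6 in place of −24.9. JUN had 45 fragments in DMSO and 30 in E2, FOS had 88 and 63, EGR2 had 79 and 58, and FOSL2 had 27 and 30. DUSP1, a phosphatase of MAP kinases, had 57 and 67, and EGR1 had 55 and 51. The median rank change of −4.15 points became 2.31 with joined domains, and none of the 13 lay beyond 2 counting errors of fragments.

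The enzymes of the mark itself were nearly all marked. Of 15 genes for writers and erasers of H3K4 methylation, 13 were marked in both lists, and KMT2B and KMT2C in neither. The KMT2B promoter fell between regions of a joined domain in both lists, of 3102 bp in DMSO and 3160 bp in E2. KMT2A, a methyltransferase gene, had 87 and 71 fragments, KMT2D had 80 and 89, and the shared subunit gene WDR5 had 74 and 63. The demethylase genes KDM5A, KDM5B and KDM5C had 87 and 81, 78 and 73, and 58 and 50. All 25 ribosomal protein genes were marked in both lists, with a median ratio of fragments of 0.940 and a median rank change of 2.63 points. The rank was higher by 20 points at 3 of them (12.0%), RPSA and RPS6 included, and lower at 0, beside 8.53% and 16.9% of all promoters. With joined domains it was higher at 5 and lower at 1. RPSA had 64 and 62 fragments, and RPS6 had 63 and 53.

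**Figure D4:**
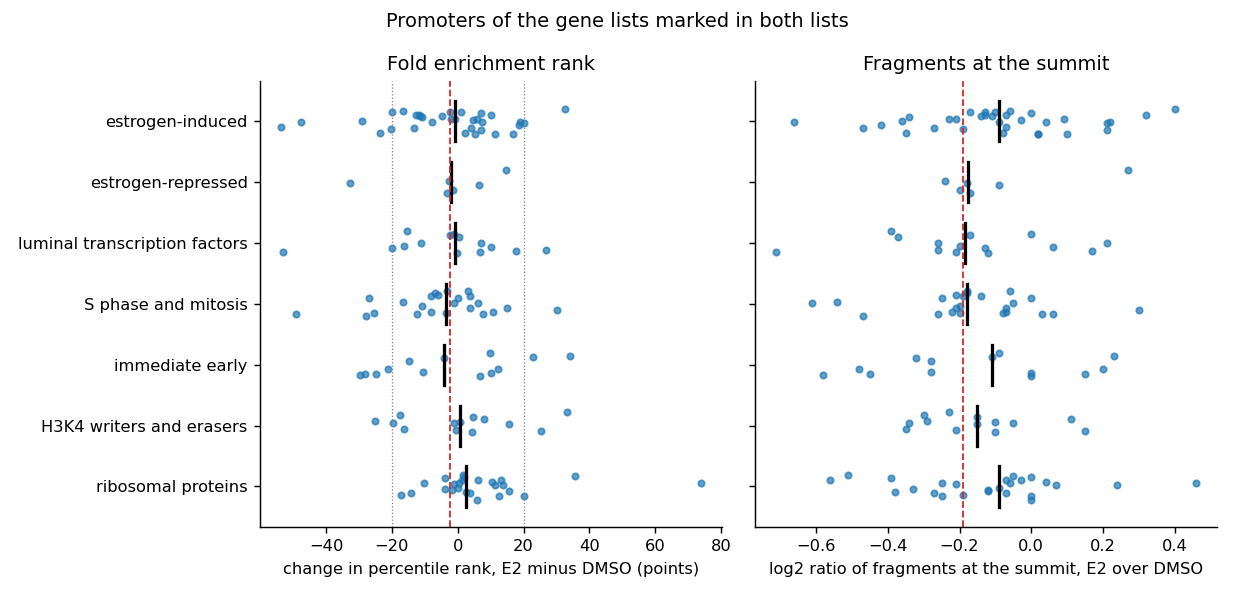
Each point is a promoter marked in both lists, grouped by gene list (rows), with the median of the list as a black bar and the median of all promoters as a red dashed line. Left, change in percentile rank of fold enrichment (points, dotted lines at 20). Right, log2 ratio of fragments at the summit, E2 over DMSO. The medians of the lists lie between −4.15 and 2.63 points and between −0.19 and −0.09 on the log2 scale.

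Shared regions covered slightly less length in E2. The overlapping regions formed 23678 groups, of which 85.5% joined a single region of each list, 9.20% had more pieces in E2 and 4.30% more pieces in DMSO. The covered length had a median of 561 bp in DMSO and 523 bp in E2 and a median ratio, E2 over DMSO, of 0.953 with quartiles of 0.821 and 1.08. It was at least 1.5 times larger in E2 in 1184 groups (5.00%) and smaller by as much in 2471 (10.4%). Shared domains joined within 1000 bp had a median width of 1242 bp in DMSO and 1176 bp in E2. At promoters marked in both lists, the joined domains had medians of 1536 and 1566 bp, which were not narrower in E2. The part of the lower number of fragments in E2 in these widths was not tested. After GATA3, the widest promoter groups were at RARA, the retinoic acid receptor α gene, with 4915 and 4749 bp, BCL9L with 4894 and 4672 bp, BCL2L1 with 4162 and 3951 bp and HDGF with 4133 and 4022 bp. The widths most above those of DMSO were at PLK2 (1109 to 2302 bp), SLC3A2 (1441 to 2626 bp), RPAP3 (850 to 1957 bp), the pair SDF2 and SUPT6H (1396 to 2457 bp) and RPSA (559 to 1589 bp). Those most below were at PLEKHG5 (1185 to 176 bp), ITPRIPL2 (1791 to 816 bp), IQSEC2 (1543 to 582 bp), LAMB1 (1154 to 203 bp) and the pair PPT2 and PRRT1 (2213 to 1298 bp). SLC3A2, the heavy chain of amino acid transporters, had 113 and 121 fragments, and PLEKHG5 had 41 and 26. The ratio of fragments had a median of 1.14 in the 60 groups under 40% G+C, 0.976 in the 3596 from 40 to 50% and 0.880 in the 8622 from 60 to 70%. At promoters it was 0.994 in the 20 groups under 40% and 0.956 in the 1656 from 40 to 50%, and it was flat above, at 0.886, 0.878 and 0.879. Across the promoters marked in both lists Spearman's rho between the ratio and the G+C content at the start was −0.0426.

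All 4 RNAPII lists of T-47D covered the shared regions most, and 3 of them covered the E2-only regions less than the DMSO-only regions. RNAPII is RNA polymerase II, mapped after 1 h of treatment in 2 libraries a treatment. Its regions overlapped 59.0% of DMSO-only and 27.8% of E2-only regions in DMSO replicate 1 and 19.7% of both in DMSO replicate 2. In E2 replicate 1 they overlapped 48.7% and 25.3%, and in E2 replicate 2 they overlapped 25.9% and 19.3%. Away from promoters the regions of DMSO replicate 2 overlapped 15.4% of DMSO-only and 17.6% of E2-only regions. In each other library the E2-only share was the lower one there too. The share of E2-only less the share of DMSO-only regions with RNAPII was −15.6 ± 22 points (SD, n = 2) in the DMSO and −15.0 ± 11.9 points in the E2 libraries, a difference of 0.648 points (two-sided exact permutation test over the 4 libraries, p = 1, where the smallest possible p is 0.33). That difference was −14.9 points without DMSO replicate 1 and −7.79 without E2 replicate 2, so its sign rests on single libraries, which also differ in size, from 21291 to 46282 regions. At this number of libraries no difference between the treatments was detectable.

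The other lists compared here are those under DMSO unless E2 is named. Treatment lasted 1 h for c-JUN and TAF1 and 8 h for the histone marks. The transcription factor c-JUN covered 44.4% of DMSO-only and 18.4% of E2-only regions, against 70.5% of shared DMSO regions. TAF1, a subunit of the general factor TFIID, covered 2.80% and 2.33%, against 20%. Split by place, TAF1 covered 7.56% (6.37 to 8.91) of DMSO-only and 8.79% (6.41 to 11.7) of E2-only regions at promoters. Away from promoters it covered 0.723% (0.485 to 1.04) and 0.970% (0.609 to 1.46). The intervals of the E2-only and DMSO-only regions overlap in both places and without the split. No order of these classes is therefore read from TAF1. For c-JUN the shares were 52.8% and 41.8% at promoters and 40.7% and 13.5% away from them. H3K27me3, by its label the mark of Polycomb repression, covered 7.18% and 1.78%, against 22.1%. At promoters H3K27me3 covered 7.68% (6.47 to 9.03) of DMSO-only and 5.44% (3.58 to 7.87) of E2-only regions, and these intervals overlap. Away from promoters it covered 6.96% and 1.01%. The E2 list of H3K27me3, with 107 regions against 6305, overlapped 0 DMSO-only, 5 E2-only and 1 shared DMSO regions. H3K4me1, a mark of enhancers, had another order, with 9.04% of DMSO-only, 2.22% of E2-only and 2.24% of shared DMSO regions. H3K4me3 regions of Ishikawa cells under DMSO covered 54.5% and 28.9%, against 84.4%. Each of these lists came from 1 library, and the E2-only regions also had the lowest G+C content, and the part of base composition in these shares was not tested.

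**Figure D5:**
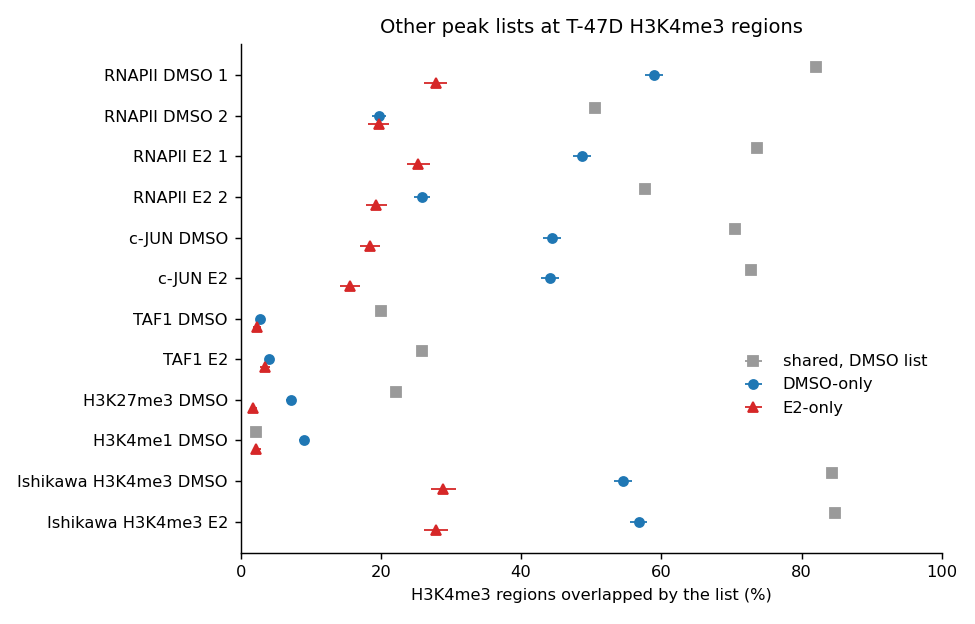
Percent of T-47D H3K4me3 regions (x axis) overlapped by at least 1 bp by other peak lists (rows), for shared regions of the DMSO list (squares), DMSO-only (circles) and E2-only regions (triangles), with 95% exact binomial intervals. In RNAPII DMSO replicate 1 the DMSO-only share is 59.0% and the E2-only share 27.8%, and in replicate 2 both are 19.7%.

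At promoters RNAPII covered the genes marked in DMSO only more often in each of the 4 libraries. RNAPII regions of DMSO replicate 1 touched 77% of the 797 promoters marked in DMSO only and 58.5% of the 118 marked in E2 only, and those of E2 replicate 1 touched 61.4% and 47.5%. In DMSO replicate 2 the shares were 33.6% and 23.7%, and in E2 replicate 2 they were 44.4% and 26.3%. Promoters marked in neither list were touched in 12.7% and 8.77%. The promoters higher in rank by 20 points and those lower had RNAPII at similar median percentiles, 83.8 and 85.7 in DMSO replicate 1 and 86.1 and 86.4 in E2 replicate 1, beside 86.3 and 87.7 for the others. H3K27me3 regions of the DMSO library touched 37.4% of promoters marked in both lists, 8.66% of those marked in DMSO only and 3.39% of those marked in E2 only. They touched only 0.463% of the 7559 promoters marked in neither. The share was thus lowest where neither list had a region and highest where both did. The H3K27me3 list is named by its label alone, and whether its regions reflect that mark was not tested. Whether both marks sit on the same nucleosomes was not tested either. These values are shares of promoters in single libraries and carry no test.

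Other pairs of lists give a scale for the spread in rank. Between the H3K4me3 lists of Ishikawa cells, DMSO against E2, 11.4% of promoters marked in both changed by 20 points or more, with a rho of 0.802, against 25.5% and 0.663 in T-47D. Between RNAPII replicates of T-47D, rho was 0.470 in DMSO and 0.623 in E2, and 43.4% and 34.0% of promoters changed by 20 points. Between DMSO and E2 within an RNAPII replicate number, rho was 0.716 and 0.754, and 8.43% and 23.7% changed. These shares depend on the other regions of each list. Ranked among the promoters marked in both lists of a pair alone, 33.5% changed for H3K4me3 in T-47D and 21.0% in Ishikawa cells. Ranked in that way, RNAPII gave 47.5% and 36.8% between replicates and 31.9% and 29.2% between treatments. Between the T-47D and Ishikawa H3K4me3 lists 56.9% changed in DMSO and 58.0% in E2 when ranked in that way. Spearman's rho between these lists was 0.223 in DMSO and 0.182 in E2.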

How the data were processed

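H3K4me3 ChIP-seq of T-47D cells was analysed from the 2 deposited narrowPeak lists, 1 library for each treatment. Per the submitters' processing notes, the tools were Bowtie 1.1.2 and MACS2 2.1.0.20140616, on hg19. The authors kept uniquely aligned reads and called peaks at the default q-value threshold of MACS2. Whether an input control was used, and which library was run on which of 2 sequencing instruments or with single or paired reads, is not given in the sources used here. The deposited columns are a score, the fold enrichment at the summit (a ratio) and the p-value and q-value as −log10. No read counts per region were analysed here.

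Regions were compared by overlap of 1 bp, placed on GENCODE release 44 (GRCh37) and ranked by fold enrichment within each list. The whole number of fragments at a summit was solved from fold enrichment, (fragments + 1)/(background + 1), and the Poisson p-value, an alternative chosen after seeing the data. A changed rank was 20 points or more. Named regions were the 10 strongest E2-only and DMSO-only promoter regions, the 10 largest shifts to a higher and to a lower rank at shared promoter regions, the 5 widest in DMSO, the 5 most widened and the 5 most narrowed in E2, the 5 strongest E2-only and DMSO-only regions away from promoters, and the members of the gene lists, of which a few results are not reported here. The members and lists were chosen with earlier results of these data known. Intervals were exact binomial or Poisson. Python 3.11.15, pandas 2.3.3, scipy 1.17.1 and pysam 0.24.0 were used, and the steps were tested on simulated data.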

Additional observations from a re-analysis of the deposited data

How the results depend on the processing

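With 1 library a treatment, the depth of about 40 fragments a summit limits what can be seen. The Poisson counting error of a promoter had a median of 0.27 on the log2 scale, above the SD of 0.22 across promoters. It is a scale and not the measured spread. Requiring a reciprocal overlap of 50% gave 8199 E2-only and 9892 DMSO-only regions. Joining regions within 1000 bp gave 937 E2-only, 2508 DMSO-only and 14644 shared E2 domains, with median widths of 212 bp for E2-only, 230 bp for DMSO-only, 1176 bp for shared E2 and 1242 bp for shared DMSO domains. A fold enrichment of at least 10 gave 1460 E2-only and 11633 shared E2 regions. DMSO-only regions numbered 6279, or 35.6% of the DMSO regions that passed, against 18.7% without this limit. For E2-only regions the shares were 11.2% and 9.45%. This limit was the same for both lists, whose median fold enrichment was 10.8 in DMSO and 9.53 in E2. Shortening the DMSO list to the length of the E2 list moved the median width of shared regions to 470 bp in E2 and 535 bp in DMSO. Promoter shares of E2-only, DMSO-only and shared DMSO regions were 44.1%, 48.2% and 79.0% within 1000 bp of a start and 24.7%, 41.2% and 71.5% with all annotated genes, so the order of the classes was kept under these settings.

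Promoters higher and lower in rank numbered 2060 and 3617 at 10 points and 451 and 953 at 30 points. Ranked by p-value, 392 were higher and 1354 lower. Ranked among the promoters marked in both lists alone, 1903 were higher and 1869 lower. Joined domains gave 1176 and 1965, and the rank of fragments gave 129 and 946, both alternatives chosen after seeing the data. For RNAPII, leaving out 1 library at a time moved the difference of 0.648 points between −14.9 and 16.2. With the replicate block the difference was 0.648 points, from pairs of 7.76 and −6.46, and the replicate numbers are not stated to mark shared cultures. Beyond the fewer or longer regions that each setting makes, the cause was not tested.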
